A study of Mus musculus with 64 samples.

Results

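The 10 genes described here are *Cd3d*, *Cd3e*, *Cd3g*, *Cd247*, *Cd8a*, *Cd8b1*, *Cd4*, *Lck*, *Cd2* and *Thy1*, which encode the CD3 chains of the T cell receptor complex, the CD8 and CD4 co-receptors, the kinase that starts receptor signalling, and 2 surface proteins of T cells. They were chosen by name, as T cell identity genes, with earlier results of these data known. They are 10 of the 25239 genes in a count table of sorted retinal microglia. Their reads were taken as T cell RNA carried in the sorted cells, measured in 62 of the 64 libraries of the series. The question was how much of this RNA came with the microglia of naive eyes and of eyes given an adeno-associated virus, and whether the amount differed with day, age and sex.

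All mice were Cx3cr1CreER:R26-tdTomato +/- on a C57BL/6J background, in which a tamoxifen-induced Cre under the *Cx3cr1* promoter marks long-lived microglia with tdTomato. Injected eyes had received 1E10 genome copies of AAV2 with no transgene into the vitreous, and were collected 12 or 28 days later. Naive eyes had no injection, so vector and injection cannot be told apart in any comparison with them. Mice of both sexes were 3, 9 or 18 months old. Each library held 600 tdTomato-bright cells of a retina, and the sort as described used no T cell marker to remove other cells. Group sizes at 3, 9 and 18 months were 7, 5 and 7 naive libraries, 8, 7 and 7 day 12 libraries and 7, 7 and 7 day 28 libraries, with 2 to 4 libraries for each sex. By the study's methods the fellow eye of a mouse went to flow cytometry or staining, so libraries of a group came from different mice.

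The T cell receptor recognises peptide on MHC molecules and signals through the CD3 chains, of which CD3δ, CD3ε and CD3γ share the surface complex with the CD3ζ chain that *Cd247* encodes. CD8, a pair of chains from *Cd8a* and *Cd8b1*, binds MHC class I and marks cytotoxic T cells, while CD4 binds MHC class II and marks helper T cells. Lck is held at the tails of both co-receptors and phosphorylates the CD3 chains. T cells are scarce in an uninflamed retina and enter it through the vessels during intraocular inflammation. In libraries of pooled cells, more T cells and more RNA per T cell cannot be told apart.

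In the mm10 (GRCm38) gene models of GENCODE, *Cd3g* (chr9:44969572-44980431, minus strand), *Cd3d* (chr9:44981786-44987339, plus strand) and *Cd3e* (chr9:44998740-45009627, minus strand) lie side by side. *Cd3g* and *Cd3d* start back to back, with 1354 bases between them. *Thy1* (chr9:44043384-44048579, plus strand) lies on the same chromosome. *Cd8b1* (chr6:71322788-71337494) and *Cd8a* (chr6:71373427-71379173) are neighbours on the plus strand, and *Cd4* (chr6:124864692-124888221, minus strand) is further along that chromosome. *Cd247* (chr1:165788681-165877277, plus strand), *Cd2* (chr3:101275899-101287939, minus strand) and *Lck* (chr4:129548344-129573641, minus strand) stand alone. Exons of *Cd247*, *Cd3e* and *Lck* overlap those of another annotated gene (*Gm16565* and *Pou2f1*, *Gm48719*, and *Mir8119*), and their counts are less certain for that reason.

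RefSeq promoter sequences (GRCm38.p6) were at hand for 6 of the 10 genes. The 250 bases before the annotated start are shown for the CD3 genes, because all 3 genes of this locus were called higher at day 12 at each age, and for *Cd8a*, whose level varied more between libraries. Capitals mark matches to short motifs of T cell factors and of the core promoter, searched on both strands. The RUNX motif searched was TGTGGT. For ETS factors it was GGAAGT. The E-box was CAGGTG. The TATA box was TATAAA. All sequences are written 5′ to 3′ on the strand of the gene.
Cd3g, chr9:44980432-44980681, minus strand: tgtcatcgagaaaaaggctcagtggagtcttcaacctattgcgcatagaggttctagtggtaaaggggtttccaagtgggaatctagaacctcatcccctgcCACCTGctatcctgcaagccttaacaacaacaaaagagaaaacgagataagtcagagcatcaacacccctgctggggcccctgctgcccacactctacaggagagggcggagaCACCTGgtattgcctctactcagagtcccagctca
Cd3d, chr9:44981536-44981785, plus strand: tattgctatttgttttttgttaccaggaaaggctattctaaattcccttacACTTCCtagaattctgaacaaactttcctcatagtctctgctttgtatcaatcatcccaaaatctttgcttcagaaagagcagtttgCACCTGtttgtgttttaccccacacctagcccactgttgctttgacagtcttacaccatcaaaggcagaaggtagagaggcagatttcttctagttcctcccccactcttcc
Cd3e, chr9:45009612-45009861, minus strand: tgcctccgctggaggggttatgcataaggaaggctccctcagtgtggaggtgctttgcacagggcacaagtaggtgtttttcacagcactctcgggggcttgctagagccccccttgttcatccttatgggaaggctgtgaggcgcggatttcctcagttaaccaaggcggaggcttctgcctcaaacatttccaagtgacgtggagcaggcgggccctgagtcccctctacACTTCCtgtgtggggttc
Cd8a, chr6:71373177-71373426, plus strand: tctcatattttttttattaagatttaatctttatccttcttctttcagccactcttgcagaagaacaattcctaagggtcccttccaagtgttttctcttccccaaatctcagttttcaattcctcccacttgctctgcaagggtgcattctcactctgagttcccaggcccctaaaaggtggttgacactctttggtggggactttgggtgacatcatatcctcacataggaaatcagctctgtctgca
The *Cd3g* window held 2 E-box matches, at 148 and 35 bases before the start. In *Cd3d* there was an ETS match at 199 bases and an E-box match at 112 bases. For *Cd3e* an ETS match stood 18 bases before the start. The letters searched were not found in the *Cd8a* window, and no TATA box letters were found in any of these 4 windows. Among all 32851 promoters in the table, 14% held TGTGGT, 19.7% GGAAGT, 17.2% CAGGTG and 12.4% TATAAA in the same window, so matches of this kind are common.

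Libraries held 1468478 to 9836173 counts, and 3 counts, taken as the floor of detection, corresponded to 0.305 to 2.04 CPM, each library's counts scaled to a common total. Some libraries stood apart. The 18-month-old female day 12 replicates 1 and 2, both of collection batch 1, had 238.8 and 189.5 CPM of *Cd74*, the MHC class II invariant chain, against 1197 to 32468 CPM in the other 20 day 12 libraries. Their summed level of 10 microglia genes was 37189 and 31334 CPM, where the naive range was 33786 to 60822 CPM. Counts of the 10 genes called in comparisons that use this pair are therefore also given without it, a choice made after seeing the data. Counts in other gene lists at day 12 and 18 months include the pair. The 18-month-old male day 28 replicate 4 carries a day 12 time point beside its day 28 title. The rule left out female day 28 replicate 1 of 18 months, in which *Xist* was at 0 and Y-linked genes summed to 255.7 CPM, although its label is female.

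The T cell genes were nearly absent from naive microglia and present in almost every library after injection. More than 3 counts of at least 8 of the 10 genes were found in 3 of 19 naive libraries, in 20 of 22 day 12 libraries and in 14 of 21 day 28 libraries. The median library carried 1 of the 10 genes when naive, 9 at day 12 and 8 at day 28. Summed over the 10 genes, the level was 0 to 217.4 CPM in naive libraries (median 1.6), 1.6 to 477.1 CPM at day 12 (median 142.1) and 19.3 to 213.0 CPM at day 28 (median 86.1). No day 28 library carried fewer than 5 of the genes, whereas 7 naive libraries carried none.

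**Figure D1:**
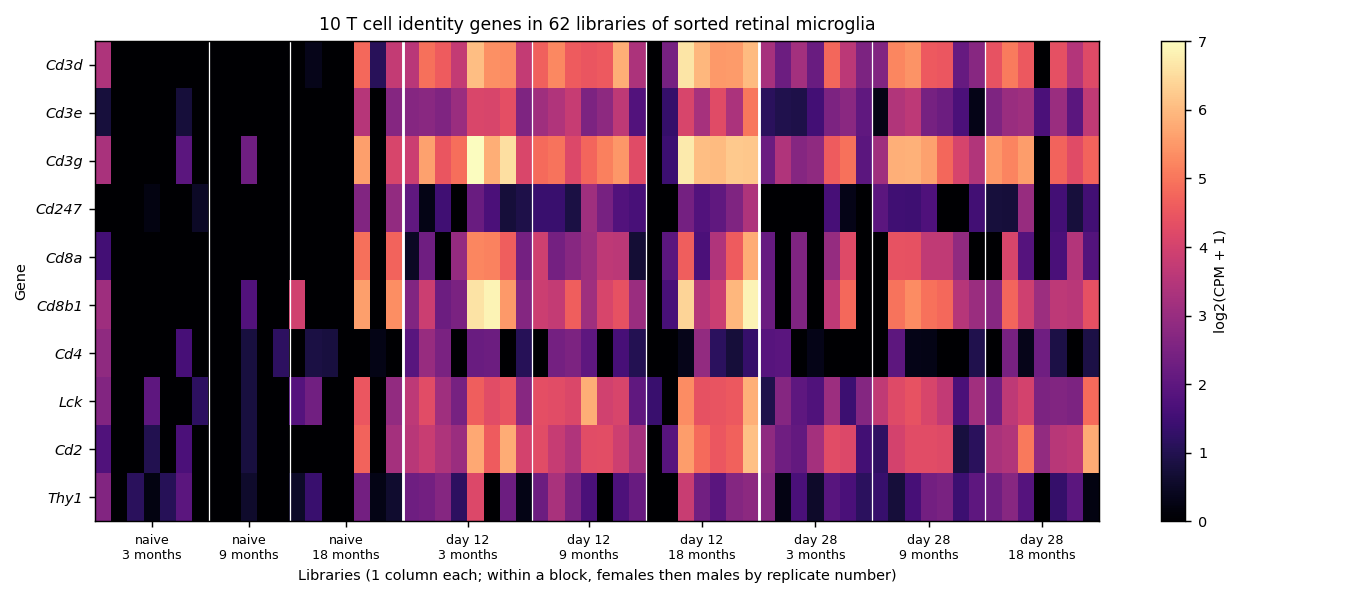
Level of each of the 10 genes, as log2(CPM + 1), in each of the 62 libraries, with states in blocks from left to right and ages within them. The naive block is dark apart from 3 libraries that carried 8 or 9 of the genes, and the dark pair at the start of the 18-month day 12 block is the female replicates 1 and 2.

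**Figure D2:**
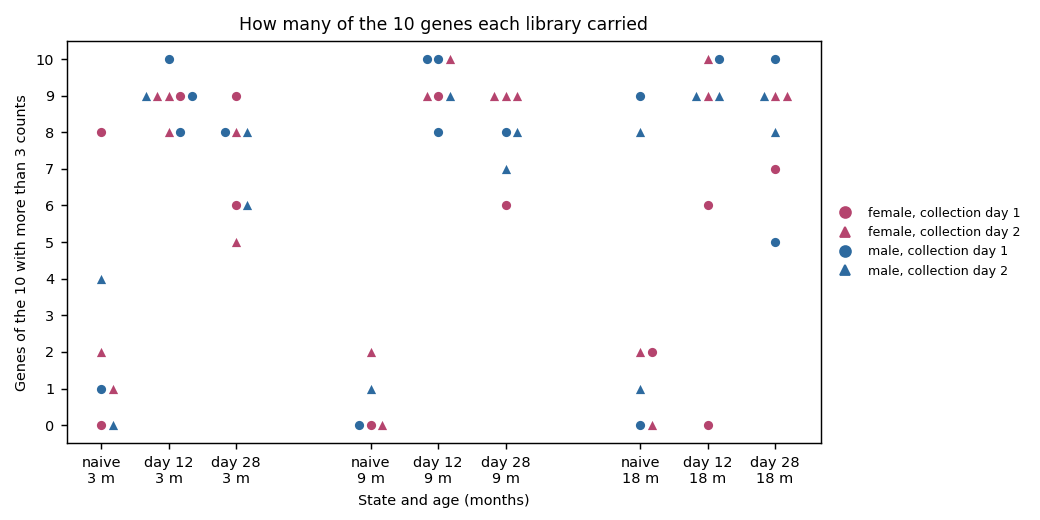
Number of the 10 genes with more than 3 counts in each library, by age (m, months) and state; colour gives the sex and symbol shape the collection batch. Day 12 libraries sat at 8 to 10 genes except the 2 at 18 months with 0 and 6, and naive libraries at 0 to 4 except the 3 with 8 or 9.

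Among the CD3 chains of the receptor complex, *Cd3g* had the highest mean level per kilobase of exon. At 3 months it lay between 0 and 8.85 CPM in naive libraries (median 0) and between 13.7 and 127.7 CPM at day 12 (median 38.6). The groups did not overlap. At 9 months the naive libraries had 0 to 3.99 CPM and the day 12 libraries 16.9 to 43.7 CPM, again without overlap. The share of all genes whose groups were apart in this way was not counted, so the separation is only a description. At 18 months the ranges were 0 to 47.3 CPM and 0 to 104.6 CPM (medians 0 and 65.3), and they overlapped through 2 naive males at 47.3 and 15.9 CPM and the 2 day 12 females at 0 and 1.71 CPM.

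*Cd3d* was at 0 in 14 of 19 naive libraries. Every naive library of 9-month-old mice was at 0 and the day 12 libraries of that age had 9.31 to 55.1 CPM, so that its mean of 27.6 ± 14.6 CPM (SD, n = 7) was at least 43.9-fold higher than the mean floor of the naive libraries. The 3-month-old naive libraries were at 0 except for the female replicate 1 at 9.33 CPM, below the lowest day 12 library of that age at 11 CPM. At 18 months the day 12 mean was 45.4 ± 34.5 CPM (n = 7) and the naive mean 5.83 ± 10.4 CPM (n = 7), a ratio of 7.78. *Cd3e* had 4.91 to 19.4 CPM at 3 months, 2.48 to 12.9 CPM at 9 months and 0 to 31.3 CPM at 18 months at day 12. In naive libraries *Cd3e* passed the floor in 2 of 19, both of them 18-month-old males.

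*Cd247*, the CD3ζ chain, stayed close to the floor. Its day 12 means were 1.57 ± 1.34, 2.98 ± 2.42 and 3.47 ± 3.26 CPM at 3, 9 and 18 months, and it passed 3 counts in 16 of 22 libraries. Of the naive libraries 2 passed it, at 5.13 and 6.52 CPM, and these were the same 18-month-old males.

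Relative to their means, the CD8 chains varied most between day 12 libraries. At day 12 *Cd8b1* had 3.82 to 115.7 CPM at 3 months (median 9.46), 7.24 to 23.9 CPM at 9 months (median 13.7) and 0 to 114.3 CPM at 18 months (median 13.3). In the 3-month-old males the 4 libraries had 97.2, 115.7, 44.9 and 5.35 CPM, and in the females 5.10, 13.6, 3.82 and 4.66 CPM. *Cd8a* had 36.9, 35.3, 24.1 and 4.24 CPM in these males and 0.392, 3.94, 0 and 6.73 CPM in these females. The 3 high males were all of collection batch 1, which held a single female of this group, at 5.10 CPM of *Cd8b1*. Within batch 2 the lone male, at 5.35 CPM, lay inside the female range of 3.82 to 13.6 CPM.

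*Cd4* was the weakest signal of the co-receptors, and its groups overlapped at each age. It never exceeded 7 CPM, passed 3 counts in 3 of 19 naive, 13 of 22 day 12 and 8 of 21 day 28 libraries, and averaged 2.2 ± 2.22 CPM at day 12 (n = 22). Per kilobase of exon, *Cd8b1* was above *Cd4* in 21 of 22 day 12 libraries and in 17 of 21 day 28 libraries, and *Cd8a* was above it in 15 and 14. Both CD8 genes were above *Cd4* in 10 of 11 day 12 males and in 5 of 11 day 12 females, a difference that was not tested. The females included 18-month-old replicate 1, in which none of the 10 genes passed 3 counts. At day 28 the counts were 7 of 10 males and 7 of 11 females, and 2 females had *Cd4* above both CD8 genes. No day 12 library had *Cd4* above both CD8 genes. Levels per kilobase of different genes, with *Cd4* near the floor, do not give a ratio of cells. In the study's flow cytometry of young retinas at day 10, CD4 cells were a larger share of T cells than CD8 cells. The same cytometry found a higher CD8 share of T cells in young males than in young females on each day measured at peak inflammation. The later of these days was also sampled here. That cytometry counted T cells among the non-microglia cells of retina and vitreous, not in sorted tdTomato-bright cells. Across the 43 injected libraries *Cd8a* and *Cd8b1* had a Spearman correlation of 0.86 and *Cd4* and *Cd8b1* one of 0.18, given as descriptions over libraries that share groups and batches.

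**Figure D3:**
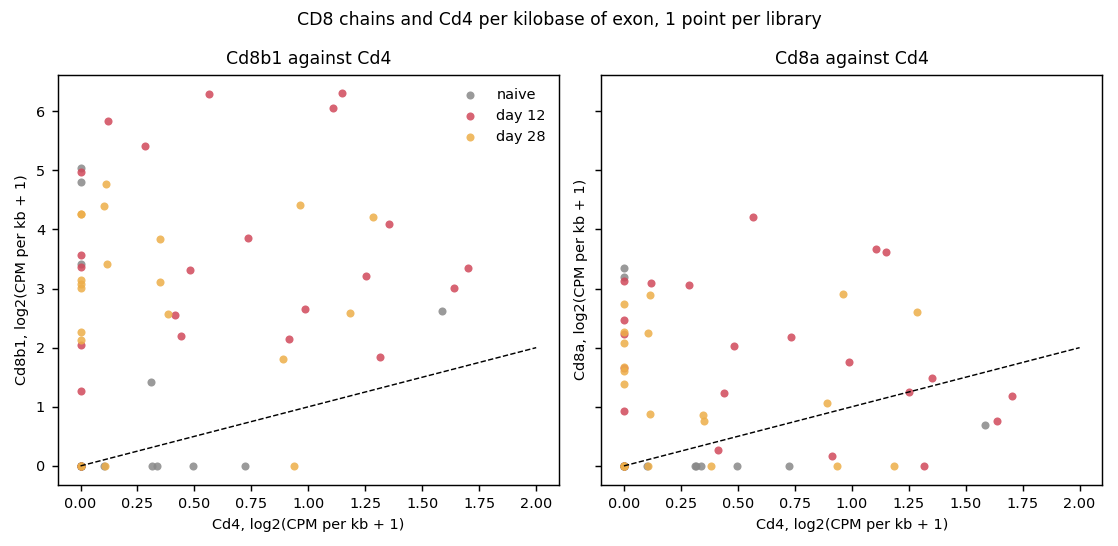
*Cd8b1* (left) and *Cd8a* (right) against *Cd4* in 62 libraries, all as log2(CPM per kilobase of exon + 1), coloured by state; the dashed line marks equal levels. At day 12, 21 of 22 libraries lay above the line for *Cd8b1* and 15 of 22 for *Cd8a*.

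*Lck*, the co-receptor-bound kinase, was at 4.40 to 24.0, 3.10 to 55.8 and 0 to 56.7 CPM at day 12 for 3, 9 and 18 months, against naive ranges of 0 to 5.26, 0 to 0.748 and 0 to 21.6 CPM. Only the 9-month-old groups were apart. *Cd2*, an adhesion receptor of T cells and natural killer cells, was at 7.25 to 53.9, 8.48 to 18.8 and 0 to 66.6 CPM at day 12, with naive ranges of 0 to 2.39, 0 to 0.748 and 0 to 25.3 CPM. For *Cd2* the groups did not overlap at 3 and 9 months. The share of all genes with groups apart was not counted here either.

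*Thy1*, a surface glycoprotein of T cells that retinal ganglion cells also make, was low throughout, at a mean of 4.2 ± 4.22 CPM at day 12 (n = 22) and 0.957 ± 1.54 CPM in naive libraries (n = 19). In the 43 injected libraries its Spearman correlation was 0.48 with the mean of *Cd3d*, *Cd3e* and *Cd3g* and −0.08 with the summed level of 9 ganglion cell genes. That sum was 25.3 to 79.6 CPM in naive and 37.4 to 81.0 CPM in day 12 libraries.

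Per kilobase of exon, the order of mean levels at day 12 was *Cd3g* (43.8 ± 33.2 CPM per kilobase, SD, n = 22), *Cd3d* (20.9 ± 15.0), *Cd8b1* (20.7 ± 25.5), *Cd2* (18.7 ± 15.4), *Lck* (8.13 ± 6.49), *Cd3e* (6.84 ± 4.98), *Cd8a* (4.10 ± 4.62), *Thy1* (2.23 ± 2.25), *Cd4* (0.707 ± 0.715) and *Cd247* (0.575 ± 0.539). *Cd3g* was above *Cd3d* in 20 of 22 libraries, *Cd2* above *Lck* in 20, and *Cd3e* above *Cd8a* in 18. The steps from *Cd3g* to *Cd3d* (22.9, with an SD of 21.7 over libraries) and from *Cd3e* to *Cd8a* (2.74, SD 2.69) were larger than the spread of the difference between libraries. Every other step between neighbours in this order was smaller than that spread. At day 28 *Cd3g* was again the highest (23.1 ± 17.8, n = 21) and *Cd247* the lowest (0.271 ± 0.361). Lengths were those of GENCODE exons, while the authors counted on RefSeq genes.

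**Figure D4:**
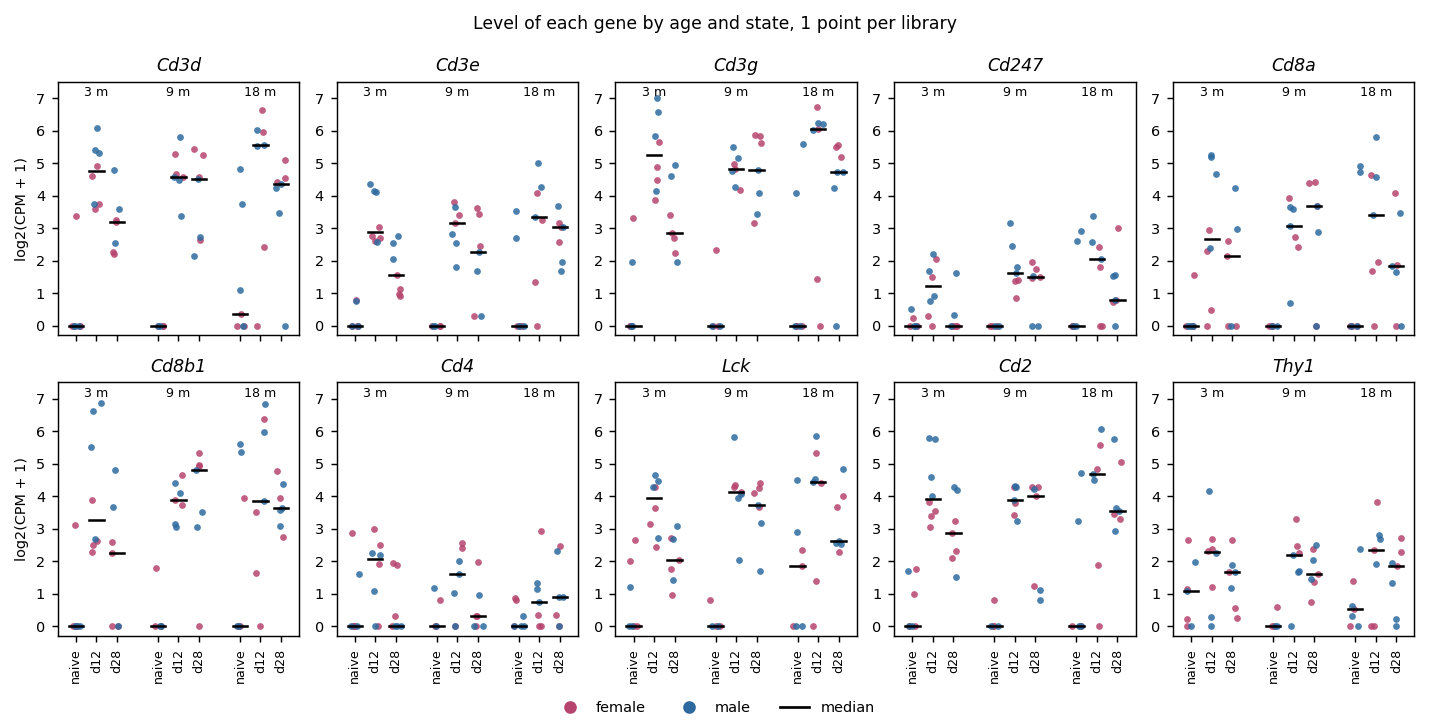
Level of each gene as log2(CPM + 1) in naive, day 12 (d12) and day 28 (d28) libraries at 3, 9 and 18 months (m); each point is a library, coloured by sex, and the bar is the group's median. Medians of the CD3 genes *Cd3d*, *Cd3e* and *Cd3g* were at or near 0 in all naive groups and above 6 CPM in all day 12 groups.

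For the tests, counts were fitted with edgeR's quasi-likelihood model over all 62 libraries and 13584 genes, with p-values adjusted over all of these (Benjamini-Hochberg), and sexes weighted equally. Against naive, and between days, a gene was called where its change exceeded a log2 fold change of 1 at an adjusted p below 0.05. At day 12, 7 of the 10 genes rose at 3 months, where 2.36% of all genes were called higher. The smallest adjusted p was 0.000195, for *Cd3e*, followed by 0.000359 for *Cd3d*, 0.00144 for *Cd3g*, 0.00222 for *Cd2*, 0.0116 for *Cd8b1*, 0.0122 for *Lck* and 0.025 for *Cd8a*. *Cd247* (adjusted p = 0.094), *Thy1* (0.999) and *Cd4* (1) did not pass. Leaving out the 3-month-old male naive replicate 1 or 2 reduced the count to 4.

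At 9 months 9 of the 10 genes rose at day 12, where 2.82% of all genes were called higher. *Cd3d* had the smallest adjusted p (8.98e-05) and *Cd8b1* the largest of those called (0.0342). *Cd4* did not pass (adjusted p = 0.794), with 0 to 1.27 CPM in naive and 0 to 4.83 CPM in day 12 libraries. With the male naive replicate 1 or 2 left out, which leaves that group with 1 library assumed to vary like the others, the counts were 5 and 4.

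At 18 months the genes called at day 12 were *Cd3d* (adjusted p = 0.00148), *Cd3g* (0.0036), *Cd3e* (0.00364) and *Cd2* (0.00401), 4 of the 10, where 2.56% of all genes were called higher. *Cd8b1* had 40.6 ± 45.5 CPM at day 12 and 14.5 ± 20.7 CPM in naive libraries (n = 7 each; adjusted p = 0.569). Without the day 12 female replicates 1 and 2, 5 of the 10 genes were called, where 481 of 13560 genes were called higher. The 4 calls depended on the form of the fit. In the main fit, over all 62 libraries, each sex counted equally. Naive females (n = 3) were at 0 for *Cd3g*, *Cd3e* and *Cd2* and averaged 0.0907 CPM of *Cd3d*. Naive males (n = 4) averaged 15.8, 4.0, 8.4 and 10.1 CPM of these genes in that order. None of the 10 passed when the sexes were pooled in a common mean per age and state. The same held when only the libraries of the groups compared were fitted, with each sex again counted equally.

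On the log2 scale the median ratio of day 12 to naive means over the 10 genes was 3.97 at 3 months, 4.08 at 9 months and 2.18 at 18 months, with means below the floor set to the floor. The fitted changes, which depend on a prior count where naive libraries are at 0, had medians of 4.78, 7.25 and 4.11, and over all 13584 genes the fitted medians were 0, 0.06 and 0.03. Whether the rise itself differed between ages was not tested.

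The naive libraries at 18 months were not all free of T cell RNA. The male replicates 2 and 4 carried 9 and 8 of the 10 genes, with 27.2 and 12.3 CPM of *Cd3d*, 47.3 and 15.9 CPM of *Cd3g*, 28.9 and 25.5 CPM of *Cd8a* and 47.3 and 40.1 CPM of *Cd8b1*. *Cd4* was at 0 in both. These CD8 levels were within the range of the day 12 libraries, while *Cd74* was at 208.5 and 78.5 CPM, below the lowest of the 16 naive libraries that carried fewer than 8 of the genes (247.0 CPM). *P2ry12*, a receptor of resting microglia, was at 9613 and 6168 CPM, inside the range of those 16 libraries (3777 to 11334 CPM). The third naive carrier, the 3-month-old female replicate 1, had 9.33 CPM of *Cd3d*, 6.22 CPM of *Cd4* and 2293 CPM of *Cd74*, above the highest of the 16 (1708 CPM). Summed natural killer cell genes reached 48.2 CPM in the male replicate 2 and 19.0 CPM in replicate 4, against at most 27.1 CPM in the 16, and their part in these levels was not tested.

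Between naive libraries of 18 and 3 months, a comparison added after these values were seen, none of the 10 genes was called by edgeR at an adjusted p below 0.1, where 0.11% of all genes were called in either direction. The same edgeR test gave 2 at an unadjusted p below 0.05, *Cd8b1* (adjusted p = 0.368) and *Lck* (adjusted p = 0.595), and DESeq2 called 1.

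At day 28 each library carried at least 5 of the 10 genes, at lower means than at day 12 in most groups. *Lck*, *Cd2* and *Cd3e* were above 0 in each of the 21 libraries, whereas *Cd4* was at 0 in 9, *Cd247* in 8, *Cd8a* in 7 and *Cd8b1* in 4. None of the 10 was called against naive at 3 months, where 0.427% of all genes were called higher. At an unadjusted p below 0.05 there were 7, and DESeq2 called 0. *Cd3d* came closest (adjusted p = 0.0843), with 3.59 to 26.6 CPM against 0 to 9.33 CPM in naive libraries. Leaving out the carrier among them, female naive replicate 1, gave 3 calls. At 9 months 5 genes rose (0.523% of all genes): *Cd3d* (adjusted p = 0.00236), *Cd3e* (0.00739), *Lck* (0.00986), *Cd3g* (0.0157) and *Cd2* (0.0176). *Cd3d* had 3.45 to 42.6 CPM at 9 months, a mean at least 31.4-fold above the naive floor. Leaving out the male naive replicate 1 or 2, in a group of 2, removed all 5 calls.

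At 18 months only *Cd2* was called at day 28 (adjusted p = 0.0438), where 0.596% of all genes were called higher. *Cd2* had 6.58 to 53.6 CPM against 0 to 25.3 CPM in naive libraries. The highest value was that of male replicate 4, which also carries a day 12 time point. Naive females were all at 0 and naive males averaged 8.4 CPM. The fitted log2 fold change was 5.29, and 1.98 with the sexes pooled. This call was lost in 9 of the 14 fits that left out a library, namely each naive library except male replicate 2, female day 28 replicates 3 and 4, and male day 28 replicate 4. It was also lost with the replicate number as a block (adjusted p = 0.079), with the sexes pooled (1) and with only the groups compared (0.185). Without the naive male replicate 2, and also without the day 12 female replicates 1 and 2, 4 genes were called. *Cd8a* and *Cd8b1* had day 28 means of 4.75 ± 5.96 and 13.7 ± 7.18 CPM, beside naive means of 7.78 ± 13.3 and 14.5 ± 20.7 CPM (n = 7 each).

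The median log2 ratio of day 28 to naive means was 2.22, 4.02 and 1.16 at 3, 9 and 18 months. Fitted medians over the 10 genes were 3.14, 6.99 and 2.91, and over all genes −0.01, 0.04 and 0.02. Both days were compared with the same naive libraries and are not independent of each other.

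Compared directly between day 28 and day 12, none of the 10 genes passed the edgeR test at any age. The background of all genes called in either direction was 0.103%, 0.339% and 0.191% at 3, 9 and 18 months, and DESeq2 called 0 of the 10 at each age. Without the 18-month-old female day 12 replicates 1 and 2 the share at 18 months was 1.24%, and again none of the 10 was called. At 3 and 18 months all 10 fitted changes were below 0, with medians of −1.87 and −1.15, and at 9 months 7 of 10, with a median of −0.65. At 3 months 4 of the 10 had an unadjusted p below 0.05, among them *Cd3e* at a log2 fold change of −1.92 ± 0.71 (SE, adjusted p = 1) and *Cd3g* at −2.07 ± 0.80 (adjusted p = 1); at 9 and 18 months there were 0. At 9 months *Cd3g* had 28.2 ± 9.34 CPM at day 12 and 31.7 ± 21.8 CPM at day 28, a log2 fold change of 0.03 ± 0.78. In that day 28 group the female replicates 2, 3 and 4 had 56.0, 57.1 and 48.6 CPM and replicate 1 had 7.82 CPM, the low one being of collection batch 1 and the other 3 of batch 2.

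None of the 10 genes passed the test between ages after injection. At an adjusted p below 0.1, edgeR called none of the 10 between 9 and 3 months or between 18 and 3 months at day 12, where 1.65% and 1.97% of all genes were called, and none had an unadjusted p below 0.05. Without the pair of 18-month-old females that stood apart the share at 18 against 3 months was 5.78%, and none of the 10 was called. *Cd3d* differed by a log2 fold change of −0.06 ± 0.69 (SE) between 9 and 3 months and 0.86 ± 0.68 between 18 and 3 months. At day 28 again none was called, with 1 of the 10 (*Cd247*) at an unadjusted p below 0.05 in each comparison. The background was 0% at 9 against 3 months, where 479 genes had an unadjusted p below 0.05 and DESeq2 called 2 higher and 1 lower, and 0.0442% at 18 against 3 months. DESeq2 called none of the 10 genes in these 4 comparisons. All 10 fitted changes at day 28 were above 0 in both comparisons, with medians of 1.18 and 1.34 that share the 3-month-old libraries, and standard errors of 0.72 to 1.05 where one could be given.

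The sexes were compared at each day. Between males and females over the 3 ages edgeR called none of the 10 at day 12 or day 28, where 0.0589% and 0.0589% of all genes were called, none had an unadjusted p below 0.05, and DESeq2 called 0. At day 12 the largest fitted difference was that of *Cd8a*, at 1.58 ± 0.83 (SE, adjusted p = 0.847), followed by *Cd8b1* at 1.41 ± 0.75 (0.858). Comparisons within each age, added after seeing the data, also called none of the 10, by edgeR or DESeq2, beside 0.0442%, 0.0663% and 0.191% of all genes at 3, 9 and 18 months. Without the same pair the share was 0.0442% over the 3 ages at day 12 and 0.0369% at 18 months, and none of the 10 was called in either. At 3 months *Cd8b1* differed by 3.28 ± 1.32 (unadjusted p = 0.0163, adjusted p = 0.913) and *Cd8a* by 3.13 ± 1.44 (0.0339 and 0.913). These were the only 2 of the 10 with an unadjusted p below 0.05 in any of the 3 ages. Most of these males were of collection batch 1 and most of these females of batch 2. Sex and batch therefore cannot be told apart in this difference. At 9 months the *Cd8b1* difference was −0.23 ± 1.32.

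**Figure D5:**
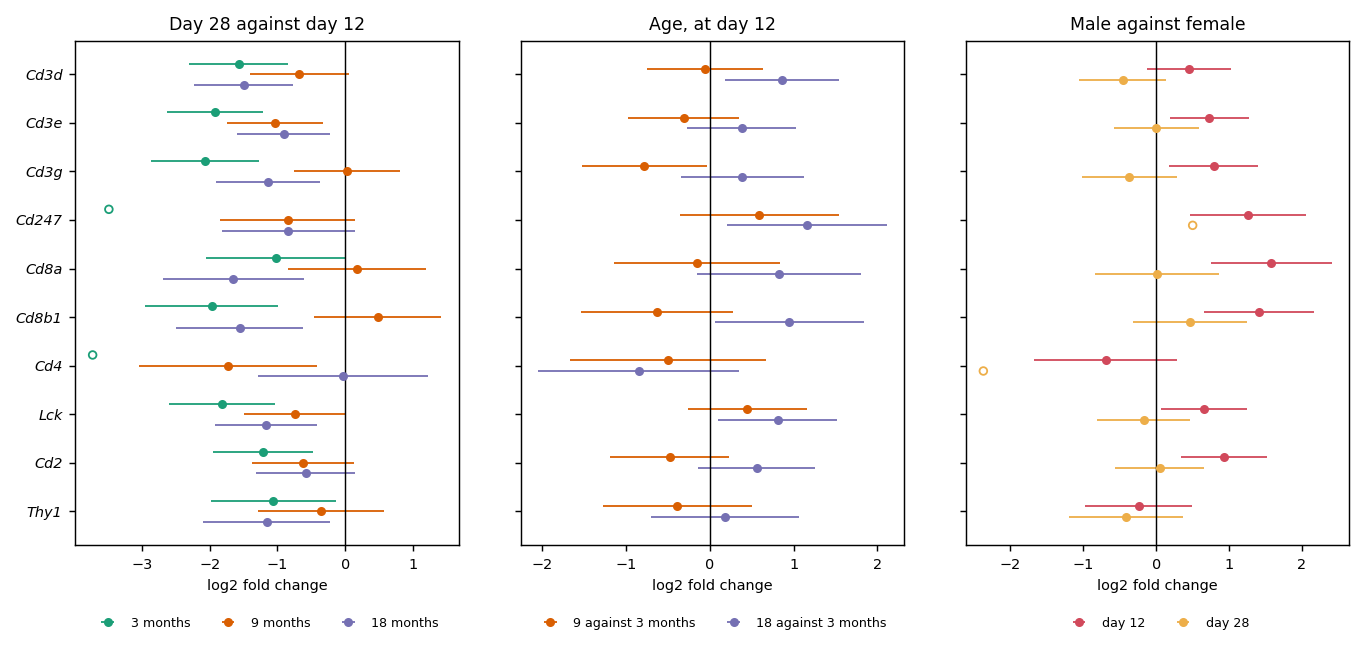
Fitted log2 fold changes of the 10 genes between day 28 and day 12 (left), between ages at day 12 (middle) and between males and females (right), with standard errors as bars; open circles have none because a group was at 0. Most bars of the day comparison lie left of 0, and none of the changes was called.

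Other T cell genes were counted in lists that were also chosen with earlier results of these data known. They were set against the same shares of all genes called higher. These were 2.36%, 2.82% and 2.56% at day 12 and 0.427%, 0.523% and 0.596% at day 28 for 3, 9 and 18 months. List counts at day 12 and 18 months include the pair of females that stood apart, and differences between ages in these counts were not tested. Of 20 genes of T cell receptor signalling and costimulation, 10, 7 and 3 rose at day 12 at 3, 9 and 18 months and none fell. *Skap1*, an adaptor of receptor-driven adhesion, had the smallest adjusted p at 3 months (0.000677), with *Cd5*, which restrains receptor signals (0.0045), and *Zap70*, the kinase that binds phosphorylated CD3 chains (0.0103). At 9 months *Skap1* (0.00101), the scaffold *Lat* (0.00667) and *Cd5* (0.0106) led, and at 18 months *Cd5* (0.00671) and the costimulatory receptors *Cd28* (0.0182) and *Icos* (0.02). The list's summed level was already 184.1 to 428.1 CPM in naive libraries, against 184.2 to 622.0 CPM at day 12. At day 28, 0, 2 and 2 of the 20 rose: *Skap1* (0.0176) and *Cd5* (0.047) at 9 months, and *Icos* (0.00588) and *Cd28* (0.0418) at 18 months. At 3 months 7 had an unadjusted p below 0.05.

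Of 10 tested T cell transcription factors, 3, 3 and 2 rose at day 12. At 3 months these were *Runx3*, a regulator of the CD8 lineage (adjusted p = 0.00694), *Bcl11b*, which maintains T cell identity (0.0124), and *Ikzf3* (0.0219). At 9 months they were *Tcf7* (0.0126), *Eomes*, a factor of effector and memory CD8 T cells and natural killer cells (0.0324), and *Ikzf3* (0.0367), and at 18 months *Tox* (0.00992) and *Eomes* (0.0236). At day 28 none of the 10 was called by edgeR at any age, with 5, 6 and 4 at an unadjusted p below 0.05. Of 12 homing and cytokine receptors, 4, 3 and 4 rose and 1 fell, *Il7r* at 3 months (log2 fold change −2.13 ± 0.41, SE, adjusted p = 0.0235). *Cd69*, a marker of recent activation and tissue residence, had the smallest adjusted p of that list at 3, 9 and 18 months (0.000122, 3.37e-07 and 2.34e-06), followed by the chemokine receptor *Cxcr6* (0.00735, 0.00162 and 0.00266). The third was *Il7r* at 3 months, *Il2rb*, a subunit of the interleukin-2 receptor, at 9 months (0.0327) and the costimulatory receptor *Cd27* at 18 months (0.00451). At day 28, 1, 2 and 0 of them rose, *Cd69* at 3 months (0.0451) and *Cd69* (0.00263) and *Cxcr6* (0.0106) at 9 months, with 4 at an unadjusted p below 0.05 at 18 months. The summed level of the 12 homing and cytokine receptors was already 31.6 to 124.9 CPM in naive libraries, against 55.9 to 391.6 CPM at day 12. The 9 T cell receptor chain genes looked for were not among the rows used here.

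Of 8 cytotoxic effector genes 3, 5 and 2 rose at day 12. *Ccl5*, a chemokine of cytotoxic lymphocytes, and *Gzmk*, a granule protease, did so at each age, with adjusted p of 9.2e-07 and 0.00452 at 3 months, 2.5e-06 and 0.00588 at 9 months, and 3.16e-05 and 0.0126 at 18 months. The list's sum was 19.7 to 565.9 CPM in naive libraries and 208.9 to 4953 CPM at day 12. *Ccl5* made up most of it, at a median of 91.6% and at least 68.9% of the sum at day 12. It was also present at 34.2 to 95.5 CPM in the 7 naive libraries that carried none of the 10 genes. Without *Ccl5* the sum of the other 7 genes was 0 to 223.1 CPM in naive libraries (median 0) and 0 to 764.9 CPM at day 12 (median 141.7). Among naive libraries the 18-month-old male replicates 2 and 4, the carriers of CD8 RNA, had the highest sums, 469.2 and 565.9 CPM, against at most 294.1 CPM in the 16 libraries that carried fewer than 8 of the genes. *Nkg7*, a granule protein, followed at 3 months (0.0264) and 9 months (0.0063). At day 28, 0, 1 and 0 of the 8 rose, *Nkg7* at 9 months (0.0382), with 3 and 2 at an unadjusted p below 0.05 at 3 and 18 months.

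Genes of other cell types that a sort could hold were counted in the same way. Of 6 tested natural killer cell genes 0, 2 and 0 rose at day 12 (0 and 2 at an unadjusted p below 0.05 at 3 and 18 months), with sums of 0 to 48.2 CPM in naive and 0.776 to 112.8 CPM in day 12 libraries. Of 5 tested B cell genes 1, 0 and 0 rose (*Cd22*), and the list's sum did not separate the states (22.2 to 134.2 CPM naive, 43.8 to 129.4 CPM at day 12). Of 5 tested monocyte and neutrophil genes 1, 1 and 0 rose, namely *Ly6c2*, and sums reached 157.3 CPM in naive and 955.3 CPM in day 12 libraries. None of 7 ganglion cell or 7 photoreceptor genes was called at day 12 or day 28 by edgeR. At an unadjusted p below 0.05 there was 1 ganglion cell gene in each comparison, and 3 photoreceptor genes at 9 months and day 12, with photoreceptor sums of 530.6 to 3116 CPM in naive and 372.4 to 2544 CPM in day 12 libraries. Their part in the levels of the 10 genes was not tested.

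Some microglia genes fell at day 12. Of 10 such genes 4 were called lower at each age, where 0.994%, 1.32% and 0.699% of all genes were called lower at 3, 9 and 18 months, and the other 6 did not pass. Among those called was *P2ry12* (log2 fold change −2.41 ± 0.30 at 3 months, −2.78 ± 0.34 at 9 months and −1.94 ± 0.31 at 18 months, SE). None was called at day 28 by edgeR, where 1 at each age had an unadjusted p below 0.05. Their summed level was 33786 to 60822 CPM in naive, 9010 to 37189 CPM at day 12 and 17765 to 46639 CPM at day 28. Each of the 10 passed the floor in some library of each state. In the 43 injected libraries this sum had a Spearman correlation of −0.58 with the mean of *Cd3d*, *Cd3e* and *Cd3g*, which is a description over libraries of different days and ages. The same mean had a correlation of −0.13 with total counts.

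The genes whose levels most resembled the mean of *Cd3d*, *Cd3e* and *Cd3g* over all 62 libraries, by Spearman correlation of log2(CPM + 1), were *Ms4a4b* (0.939), *Gimap4* (0.936), *Nkg7* (0.926), *Cxcr6* (0.897), *Gimap3* (0.896), *Lat* (0.893), *Gimap7* (0.890) and *Ptprcap* (0.868). Among the 10 genes themselves the correlation with the mean of the CD3 genes, leaving out the gene itself, ran from 0.96 for *Cd3d* to 0.40 for *Cd4* over all libraries. In the 43 injected libraries alone it was 0.92 for *Cd3d*, 0.90 for *Cd3g*, 0.83 for *Cd8b1*, 0.82 for *Lck*, 0.59 for *Cd247*, 0.48 for *Thy1* and 0.33 for *Cd4*. These values are descriptions across libraries that share groups.

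Collection batch moved with the level in some groups. At day 12 and 18 months the 3 libraries of batch 1 had 0, 1.71 and 63.9 CPM of *Cd3g* and the 4 of batch 2 had 65.3 to 104.6 CPM, the batch 1 group holding both low females. At 3 months the order was the reverse, at 13.7 to 127.7 CPM in batch 1 and 16.5 to 48.8 CPM in batch 2. Over all ages the day 12 means were 44.4 ± 39.1 CPM (n = 11) in batch 1 and 45.3 ± 30.0 CPM (n = 11) in batch 2, and the naive means 7.02 ± 16.6 CPM (n = 8) and 2.07 ± 4.80 CPM (n = 11).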

How the data were processed

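RNA of 600 sorted retinal microglia per library was amplified with SMART-Seq v4 (16 PCR cycles), tagged with Nextera XT and sequenced single-end. Per the labels and the study's methods, the authors aligned reads with STAR 2.7.8a to mm10, counted them per RefSeq gene with featureCounts, and adjusted the deposited counts for 2 collection batches with ComBat_seq. Adjusted counts were used throughout, with the deposited uncorrected counts as an alternative. Amplified reads carry no molecular identifiers, so the floor of 3 counts covers counting error only.

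CPM were computed from library totals. edgeR 4.0.16 (R 4.3.3) fitted 18 groups of age, sex and state with TMM scaling after filterByExpr, and DESeq2 1.42.0 served as an alternative. Differences between ages and sexes were called at an adjusted p below 0.1, others as stated. The script was tested on simulated data. Members and gene lists were chosen with earlier results of these data known. All 10 genes were named in every comparison; beside them, for each T cell list and day against naive, up to 3 called genes of smallest p, and the 8 genes most like the CD3 mean. *Cd74*, *P2ry12*, *Cd22* and *Ly6c2* were named after their values were seen. Replicate numbers did not pair libraries. Levels per kilobase and promoters used GENCODE and RefSeq models.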

Additional observations from a re-analysis of the deposited data

Results flagged for a closer look

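Within each age and state the level of each gene was checked for a library far from the rest, by the gap to its neighbour as a share of the range. Of 86 groups checked 24 were flagged. Chance flags about 1 in 20 groups of values drawn from a normal distribution, but that rate does not hold here. Where every other library is at 0, any level above 0 is flagged, however low, so the number of flags is no result. Among naive libraries the 3-month-old female replicate 1 was flagged for *Cd3d* (9.33 CPM), *Cd3g* (8.85), *Cd8a* (1.91), *Cd8b1* (7.65) and *Cd4* (6.22). The 9-month-old female naive replicate 3 was flagged for *Cd3g* (3.99 CPM), *Cd8b1* (2.49), *Lck* (0.748), *Cd2* (0.748) and *Thy1* (0.499), with the other 4 libraries of that group at 0. The 18-month-old male naive replicate 2 was flagged for *Cd3g* (47.3 CPM), *Lck* (21.6), *Cd2* (25.3) and *Thy1* (4.19), and the 3-month-old male naive replicate 3 for *Cd247* (0.431).

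After injection, the 3-month-old male day 12 replicate 1 was high for *Thy1* (16.9 CPM), the 9-month-old male day 12 replicate 1 for *Lck* (55.8) and the 18-month-old female day 12 replicate 4 for *Cd4* (6.56). At day 28 the 3-month-old male replicate 1 was high for *Cd3d* (26.6 CPM) and *Cd247* (2.04), the male replicate 2 of that age for *Cd8a* (17.7) and *Cd8b1* (26.9), the 9-month-old female replicate 2 for *Cd4* (2.95) and the 18-month-old female replicate 4 for *Cd247* (7.04).

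T cell RNA was also present in libraries outside the comparisons. The 10 genes summed to 177 CPM in the library titled as 9-month-old male day 28 replicate 1, held here only in the uncorrected table, whose male label goes against its 255.2 CPM of *Xist* and a lack of Y-linked reads, and to 139 CPM in the female day 28 replicate 1 of 18 months that the rule left out, above 18 of the 19 naive libraries in both cases.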

How the results depend on the processing

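The count of called genes stayed within 1.5 times its value in 217 of 242 recomputations over 19 comparisons. In most of these comparisons the count was 0, and a 0 that stayed 0 was included, so this number says little. A call was lost in 17 of 338 recomputed changes and in 42 of 343 with a library left out. None of these changes turned its direction, which a change from naive libraries at 0 could hardly do. Without a filter on low counts there were 7 calls at day 12 and 18 months, 6, 9 and 4 at day 28 against naive at 3, 9 and 18 months, 1 at day 28 against day 12 at 3 months, 2 at day 28 in each age comparison, 2 between sexes at day 12, 4 between sexes at 3 months and 2 between naive ages. The plain test in place of the one against a fold gave 7 at day 12 and 18 months and 3, 9 and 4 at day 28. At day 12 and 18 months 508 of 20135 genes were called higher without the filter, and 1295 of 13584 by the plain test. At day 28 and 3, 9 and 18 months these counts were 154, 174 and 177 without the filter. By the plain test they were 270, 336 and 427. Without the filter, 25 of 20135 genes were called higher and 89 lower at day 28 against day 12 at 3 months. In the age comparisons at day 28 these were 41 and 11 at 9 against 3 months. At 18 against 3 months they were 75 and 16. Between sexes at day 12 they were 69 and 56 over the ages, and 83 and 14 at 3 months. Between naive ages they were 117 and 50. With only the groups compared in the fit, or the sexes pooled, there were 0 at 18 months on both days. At day 28 and 18 months there were 0 with the replicate block, 0 with male replicate 4 left out or at day 12, and 2 with the left-out female replicate 1 kept. With that female library kept, 122 of all 13590 genes were called higher. The block changed no other count by more than 1.5 times, and replicate numbers did not pair libraries (mean correlation of deviations −0.0114). Without 18-month-old female day 12 replicates 1 and 2, day 28 against naive had 1 call at 3 months and 4 at 18 months. Of all 13560 genes, 72 and 112 were called higher there. DESeq2 called 1 gene between naive ages. Leaving out a library gave 4 to 7, 4 to 9 and 4 to 5 calls at day 12 against naive for 3, 9 and 18 months, 0 to 3, 0 to 7 and 0 to 4 at day 28, and 0 to 1 between naive ages. Mean levels from uncorrected counts were 0.598 to 1.91 times those given, and from TMM-scaled totals 0.879 to 1.11 times. Libraries at 0 limit what can be said of naive levels to the floor.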
